A study of Mus musculus with 12 samples.

Results

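The intraflagellar transport genes encode the machine that carries cargo along the axoneme, and 33 of them were followed in WT and mutant mice in 2 tissues. The members were chosen by symbol as the subunits of the IFT-A and IFT-B particles and of their motors, kinesin-2 and dynein-2. All 33 were found among the 51826 entries of the sperm table and among the 23502 entries of the testis table, and all 33 passed the filter on low counts in both, which left 20945 and 16821 genes to be tested. RNA-seq of poly(A) RNA had been done on 12 libraries in 4 groups of 3 biological replicates. Mature sperm came from the cauda epididymis at P56 (postnatal day 56), from WT mice and from Xap5l KO mice, a CRISPR-Cas9 line that lacks Xap5l in every cell and whose males are sterile. Whole testes came from WT and Xap5 cKO mice at P16. In Xap5 cKO mice a floxed Xap5 allele is deleted by Stra8-GFPCre, a Cre expressed from the Stra8 promoter in germ cells. Sertoli, Leydig and other somatic cells of the testis thus keep Xap5. Xap5 cKO males are sterile as well. The labels give the controls of both comparisons as WT. In the study's fertility tests the controls of the cKO mice carried the floxed allele without Cre, and whether the P16 controls did so was not given in the sources used here. The floxed Xap5 and the Xap5l KO mice were made in C57BL/6J, and the background of the Cre mice was not given in the sources used here. Xap5 and Xap5l, listed in the tables as Fam50a and Fam50b, are the transcription factors whose part in the expression of ciliary genes during spermatogenesis the study examined.

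Intraflagellar transport moves trains of IFT-A and IFT-B particles from the base of a cilium to its tip with kinesin-2 and back to the base with dynein-2. IFT-B carries building blocks such as tubulin outwards, and IFT-A is needed for the return and for the entry of membrane proteins. In male germ cells the same subunits assemble the sperm flagellum, and loss of several of them in mice leaves sperm without proper tails. Sperm flagella are built in spermatids. Transcription largely stops when the sperm head condenses, so that the RNA of a mature sperm is a remnant of earlier stages.

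The libraries held between 38881197 and 41716085 counts in WT sperm, between 43373223 and 52308452 in Xap5l KO sperm, between 34063501 and 36759054 in WT testes and between 32251198 and 33754554 in Xap5 cKO testes. Of the counts in WT sperm the 33 genes took 0.0906%, 0.091% and 0.0886%, and of those in Xap5l KO sperm 0.13%, 0.176% and 0.154%. In testes their share was 0.282%, 0.277% and 0.221% for WT and 0.113%, 0.115% and 0.122% for Xap5 cKO. Levels are given below as CPM, the counts of a gene relative to the library size after scaling by edgeR's TMM factors. Standard errors (SE) are those of the log2 fold change. The genotypes were checked on the targeted genes. Fam50b had 17.4, 10.5 and 9.04 CPM in WT sperm and 0.51, 0.42 and 0.14 CPM in Xap5l KO sperm. Fam50a had 24.4, 22.2 and 27.5 CPM in WT testes and 20.9, 18.1 and 19.8 CPM in Xap5 cKO testes, all below the lowest WT library, a fall to 79.3% of WT with an edgeR adjusted p of 0.0495. The other gene of the pair was lower as well in each mutant. Fam50a had 16.6, 16.8 and 14.9 CPM for WT and 8.45, 8.79 and 11.1 CPM for Xap5l KO sperm, and Fam50b had 15.8, 14.8 and 5.48 CPM for WT and 0.19, 0 and 0.21 CPM for Xap5 cKO testes.

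Some libraries stood apart. WT testis replicate 3 was the lowest WT library for 32 of the 33 genes, with a median of 79.8% of the mean of the other WT libraries, and it also had 1071 summed CPM of 7 pachytene spermatocyte markers against 2098 and 2054 in the other WT testes. Among the sperm libraries, WT replicate 1 was the highest WT library for 22 genes and Xap5l KO replicate 3 was the lowest KO library for 24. WT sperm replicate 2 had 0 counts of Ttc30a2, a gene with at least 404 counts in each of the other 5 sperm libraries. The same pattern, 0 in 1 library and at least 100 counts in each of the other 5, was found for 5 entries over both tables. The tissues were checked on marker genes. Sperm held the protamine transcript Prm2 at a mean of 10180 CPM in WT, together with the epididymal transcript Crisp1 at 6199 CPM and the macrophage transcript Lyz2 at 566 CPM. In the P16 testes Prm2 was at 0 in all 6 libraries, and Prm1, Tnp1 and Tnp2 did not exceed 0.33 CPM in any.

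Promoter windows were read for 28 of the 33 genes from RefSeq (GRCm38.p6), and the 250 bases before the start were searched on both strands. Ift122, Ift80, Ift81, Dync2li1 and Ttc30b were not matched. The motifs were the GC-rich sequence CCCCGCCC, which is shared by the motifs the study gives for Xap5 and Xap5l, its core GGGCGG, known as the GC box, and the X-box of the RFX transcription factors, which are known regulators of ciliary genes. The X-box is an imperfect inverted repeat, searched here as GTTNCC followed by GGNAAC, where N is any base, with up to 3 bases between these arms, and the form GTTGCC of the first arm was also searched alone. The full X-box was found in 3 of the 28 windows (10.7%) and in 0.673% of all 32851 windows. The arm GTTGCC was found in 9 (32.1%) and in 10.4% of all windows. The GC box was found in 14 (50%) and in 32.7% of all windows, and CCCCGCCC, which contains a GC box on the other strand, in 6 (21.4%), those of Hspb11, Ift20, Ift46, Ift52, Kif3a and Traf3ip1, and in 16.1%. Stretches of the windows of Ttc26 and Ttc30a2, which hold an X-box, and of Ift20, the only member that fell in Xap5l KO sperm, are shown in the direction of the gene with the match in capitals, the X-box in Ttc26 and Ttc30a2 and CCCCGCCC in Ift20.
Ttc26: ccggcggcGTTGCCGTGGAAACggagctcg
Ttc30a2: gttggcttGTTGCCATGGGAACaagcacac
Ift20: ctacttcccgtgtcgtagtCCCCGCCCcct
The stretches lie on GRCm38.p6 at chr6:38381483-38381512 on the plus strand for Ttc26, chr2:75978182-75978211 on the minus strand for Ttc30a2 and chr11:78536331-78536360 on the plus strand for Ift20. The matches begin 33, 24 and 11 bases before the RefSeq start. In the GENCODE annotation Ttc26 starts at chr6:38381469, so that its stretch lies after this start, and it overlaps an exon of the gene itself. The stretch of Ift20 overlaps an exon of Tnfaip1, its neighbour, and that of Ttc30a2 touches no exon. A match describes the letters of the window, and binding was not measured here.

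The first comparison asked how the genes stood in P16 testes after germ-cell loss of Xap5. The intraflagellar transport genes were lower in Xap5 cKO testes nearly throughout. Of the 33, 29 fell (87.9%) at an adjusted p under 0.05 (quasi-likelihood test of edgeR, adjusted by Benjamini-Hochberg over all tested genes), where 28.1% of all tested genes fell. More than 2-fold falls passed the same test for 16 (48.5%), against 10.9% of all tested genes. None rose, where 25% of all tested genes rose and 4.15% rose more than 2-fold. The one positive log2 fold change, of Ttc30b, was 0.07 with an adjusted p of 0.757 from edgeR, and 0 members were upregulated more than 2-fold at an unadjusted p under 0.05 or with DESeq2. The median log2 fold change was -0.98, or 50.7% of WT, beside -0.01 over all tested genes. In 29 genes every cKO library lay below every WT library, as it did in 32.4% of all tested genes. The summed level of the 33 genes was 2857, 2794 and 2179 CPM in WT and 1135, 1144 and 1223 CPM in Xap5 cKO testes, so that the cKO libraries lay closer together than the WT libraries did. Without WT replicate 3 the falls of more than 2-fold numbered 20 (60.6%, against 11.4% of all tested genes) and those at any fold 31 (93.9%, against 28.2%), and the median log2 fold change was -1.10.

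Markers of cell types moved with these falls, and their part in them was not tested. All 7 pachytene spermatocyte markers were downregulated more than 2-fold, with a median log2 fold change of -3.33. Their summed level was 2098, 2054 and 1071 CPM in WT and 152, 151 and 237 CPM in Xap5 cKO testes, and the most abundant of them, the chaperone gene Hspa2, fell to 23.8% of WT. Over all tested genes 28.1% fell and 25% rose. Of 7 spermatogonial markers 6 fell and 1, Gfra1, rose, and their summed level was 675, 707 and 755 CPM in WT and 495, 502 and 461 CPM in cKO testes, with Uchl1 the most abundant. Of 6 Sertoli cell markers 5 rose, with summed levels of 780, 835 and 877 CPM in WT and 1326, 1353 and 1396 CPM in cKO testes and Cldn11 the most abundant. Leydig cell markers rose in 3 of 6, from 336, 193 and 312 to 649, 737 and 388 CPM, with Insl3 the most abundant. Leukocyte markers rose in 5 of the 6 tested, from 108, 74.1 and 79.1 to 193, 211 and 157 CPM, with Lyz2 the most abundant and S100a8 and S100a9 at 0. Spermatid markers summed to between 11.03 and 16.6 CPM in the 6 testis libraries, and 0 of the 3 tested passed edgeR's test or its unadjusted p under 0.05. Of 8 epididymal epithelium markers 5 were at 0, and of the 3 tested Aqp9 and Epcam fell. By histology the study saw no pachytene spermatocytes in Xap5 cKO testes at P16 and later. It reports that germ cells were arrested in meiotic prophase. For the transport genes and the other marker lists, fewer cells of a type and less RNA per cell cannot be told apart in whole testes.

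**Figure D1:**
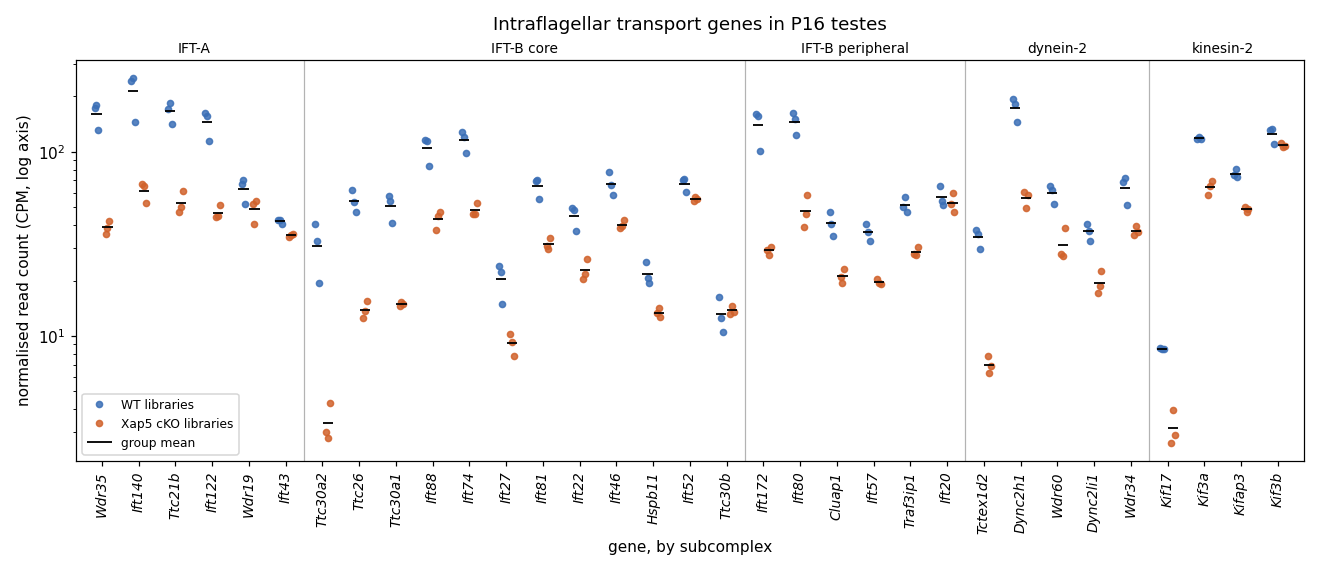
Normalised read counts (CPM, log axis) of the 33 intraflagellar transport genes in the 3 WT and 3 Xap5 cKO testis libraries at P16, grouped by subcomplex and ordered by log2 fold change within each, with group means as horizontal lines. In 29 genes all 3 cKO points lie below all 3 WT points, and Wdr19, Ttc30b, Ift20 and Kif3b overlap.

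Of the subcomplexes, IFT-A had the lowest median log2 fold change, -1.64, and 5 of its 6 genes fell (83.3%, against 28.1% of all tested genes), 4 of them more than 2-fold (66.7%, against 10.9%). Wdr35, which encodes IFT121, had 172, 180 and 131 CPM in WT and 36.0, 38.5 and 42.2 CPM in Xap5 cKO testes. Every cKO library lay far below the lowest WT library, and the log2 fold change was -2.05 (SE 0.125, edgeR adjusted p = 1.05e-05). Ift140, a core subunit of the particle, had 243, 250 and 145 CPM in WT and 66.7, 64.8 and 52.5 CPM in cKO testes. Here WT replicate 3 lay far below the other WT libraries but still above all cKO libraries, and Ift140 fell by 1.79 on the log2 scale. Ttc21b, which encodes the retrograde subunit IFT139, and Ift122, another core subunit, fell by 1.65 and 1.63 on the log2 scale to 31.9% and 32.3% of WT. Wdr19 and Ift43 moved less than these. Wdr19, which encodes IFT144, had 67.0, 70.0 and 52.1 CPM in WT and 51.9, 40.7 and 53.8 CPM in cKO testes, and the groups overlapped at WT replicate 3 (log2 fold change -0.37, edgeR adjusted p = 0.0518). Without WT replicate 3 its log2 fold change was -0.49 and the edgeR adjusted p 0.00795, within a range of 0.00795 to 0.187 over the alternatives tried. Its fall passed under 6 of 15 alternatives, among them DESeq2 (adjusted p = 0.0302) and library size alone (edgeR adjusted p = 0.0447). Ift43, a small IFT-A subunit, had 42.8, 42.7 and 40.5 CPM in WT and 34.6, 35.4 and 35.9 CPM in cKO testes. The groups did not overlap, but the difference was small (log2 fold change -0.25, standard error 0.0841, edgeR adjusted p = 0.0318) and passed the test in only 1 of the 6 fits that left out 1 library, that without WT replicate 3.

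Of the 12 genes of the IFT-B core, 11 fell (91.7%, against 28.1% of all tested genes), 7 of them more than 2-fold (58.3%, against 10.9%), and the median log2 fold change of the 12 was -1.11. The widest spread was found among the 3 genes for IFT70, Ttc30a1, Ttc30a2 and Ttc30b, a tetratricopeptide repeat subunit, which lie near each other on the minus strand of chromosome 2 in GRCm38. Ttc30a2 (chr2:75975740-75978170) had 1356, 1198 and 695 counts in WT and 97, 95 and 142 counts in Xap5 cKO testes, or 40.4, 32.9 and 19.3 against 3.02, 2.79 and 4.31 CPM. Every cKO library lay far below the lowest WT library, WT replicate 3, and the log2 fold change of -3.19 (SE 0.295, edgeR adjusted p = 4.2e-05), to 10.9% of WT, was the largest fall among the 33 genes. Ttc30a1 (chr2:75978247-75981967) had 57.5, 54.3 and 40.9 CPM in WT and 14.5, 15.2 and 14.9 CPM in cKO testes, without overlap, a fall by 1.77 on the log2 scale. Ttc30b (chr2:75935849-75938585) had 16.3, 12.5 and 10.5 CPM in WT and 13.2, 14.6 and 13.6 CPM in cKO testes, with all cKO libraries inside the WT range. The 3 coding sequences, of 1995 bases each, are between 94.8% and 95.1% identical, and depending on the pair between 3.41% and 23.7% of their 150-base windows are shared, and reads of the 3 genes may therefore have been divided among them. How such reads were counted was not given in the sources used here. Summed over the 3 genes, the counts were 3837, 3632 and 2544 in WT and 989, 1112 and 1081 in cKO testes, with a log2 fold change of the sum of -1.56 (SE 0.157, edgeR adjusted p = 6.19e-05). This sum was chosen after the data were seen.

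Ttc26, which encodes IFT56, a subunit needed for the transport of motility proteins, had 61.9, 53.7 and 46.9 CPM in WT and 12.6, 13.6 and 15.4 CPM in Xap5 cKO testes. The groups were far apart, and the log2 fold change was -1.97 (SE 0.133, edgeR adjusted p = 1.37e-05). Ift88, whose mutation in mice shortens cilia, fell to 41.1% of WT. Ift74 and Ift81, whose products form a pair that binds tubulin, fell to 41.8% and 48.3%. Ift27, a small GTPase that works with Hspb11 (IFT25) in the exit of membrane proteins from cilia, fell to 44.7%, and Hspb11 itself to 61.6%. Ift22, another small GTPase of the particle, fell to 50.7%, just short of the fold threshold, and Ift46, which links dynein arms to the train, to 59.7%. Ift52, a scaffold on which the core is built, had 69.8, 70.8 and 60.5 CPM in WT and 54.3, 56.5 and 55.4 CPM in cKO testes. Its groups did not overlap, and its fall, by 0.27 on the log2 scale (edgeR adjusted p = 0.0224), was lost in 4 of the 6 fits that left out 1 library, those without WT replicate 1 or 2 and without cKO replicate 1 or 2.

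Among the 6 peripheral IFT-B genes, 5 fell (83.3%, against 28.1% of all tested genes) and 2 fell more than 2-fold (33.3%, against 10.9%), with a median log2 fold change of -0.92. Ift172, which encodes the long subunit that helps turn trains around at the tip, had 161, 157 and 100.5 CPM in WT and 29.4, 27.6 and 30.4 CPM in Xap5 cKO testes. The cKO libraries were tightly grouped below WT, and the log2 fold change was -2.26 (SE 0.167, edgeR adjusted p = 1.85e-05), to 20.9% of WT. Ift80 fell to 32.9% of WT, from between 123 and 162 CPM to between 39.2 and 57.9 CPM. Cluap1 (IFT38), Ift57 and Traf3ip1 (IFT54), which tie the peripheral subunits together or to the core, fell to between 51.7% and 55.7% of WT. Exons of Cluap1 share 510 bases with Gm20695 on the same strand, so reads of this stretch could belong to either gene. Cluap1 also shares 368 bases with 1700016D08Rik and 51 with Gm15537 on the opposite strand, as Ift57 shares 225 bases with Gm15518 and Ift88 shares 67 with Ift88os. Ift20, which encodes a small subunit that also resides at the Golgi and sorts membrane cargo to the cilium, had 64.8, 53.7 and 51.1 CPM in WT and 51.8, 59.4 and 47.0 CPM in cKO testes. The groups overlapped (log2 fold change -0.10, standard error 0.12, edgeR adjusted p = 0.512), and without WT replicate 1 the sign turned, to 0.01.

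All 5 dynein-2 genes and 3 of the 4 kinesin-2 genes (75%) fell in Xap5 cKO testes, against 28.1% of all tested genes. Tctex1d2, a light chain of dynein-2, had 37.5, 35.8 and 29.8 CPM in WT and 7.77, 6.28 and 6.86 CPM in cKO testes. With a log2 fold change of -2.30 (SE 0.147, edgeR adjusted p = 1.15e-05) it fell to 20.3% of WT and was the most reduced motor subunit. Dync2h1, the heavy chain that carries the motor domain, had 194, 182 and 145 CPM in WT and 60.4, 49.6 and 58.1 CPM in cKO testes, without overlap, 32.3% of WT. The light intermediate chain gene Dync2li1 and the intermediate chain genes Wdr60 and Wdr34 fell to 52.7%, 52.4% and 58.1% of WT. Of the anterograde motor, Kif3a fell to 54.3% and Kifap3, the accessory subunit, to 64.0% of WT. Kif3b, the partner of Kif3a in the motor, had 132, 132 and 111 CPM in WT and 111, 106 and 108 CPM in cKO testes. The groups met at WT replicate 3 (log2 fold change -0.21, edgeR adjusted p = 0.0553). Without that library the log2 fold change was -0.29 with an edgeR adjusted p of 0.00358, within a range of 0.00358 to 0.182 over the alternatives tried. The fall of Kif3b passed under 3 of 15 alternatives. Kif17, the kinesin-2 that works as a homodimer and that in the testis is also known to carry the CREM coactivator ACT, had 8.63, 8.45 and 8.45 CPM in WT and 2.64, 3.96 and 2.89 CPM in cKO testes. Low in both groups, it fell to 37.2% of WT (log2 fold change -1.43, standard error 0.221, edgeR adjusted p = 0.000612).

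Beyond the 33 genes, 23 genes that act on or with the transport machine were counted from a list of light chains, kinases, small GTPases and partners. In Xap5 cKO testes 14 of the 23 fell (60.9%, against 28.1% of all tested genes), 5 of them more than 2-fold (21.7%, against 10.9%), and 4 rose (17.4%, against 25%). Mak and Mok, kinases related to those that limit cilium length at the tip, fell by 3.40 and 2.40 on the log2 scale (adjusted p = 1e-05 and 1.69e-05 from edgeR). Mak had 27.7, 30.8 and 23.2 CPM in WT and 3.17, 2.20 and 2.40 CPM in cKO testes, and no cKO library came near the WT range. Dynlrb2, a dynein light chain of the roadblock type, had 5.15, 7.63 and 3.25 CPM in WT and 0.40, 0 and 0.18 CPM in cKO testes. Spef2, a sperm flagellar protein that binds IFT20, fell by 3.19 and Arl3, a GTPase that releases cargo inside the cilium, by 1.26 on the log2 scale. Ick (Cilk1), a kinase of the same family as Mak, had 51.6, 45.9 and 48.9 CPM in WT and 68.8, 64.4 and 53.7 CPM in cKO testes, all above WT, and rose by 0.35 on the log2 scale (edgeR adjusted p = 0.0195). The light chain genes Dynll2 and Dynlt3, which dynein-2 shares with cytoplasmic dynein, rose by 0.28 and 0.70, and Tulp3, the adaptor that brings membrane receptors to IFT-A, rose by 0.67. The light chain genes Dynlt1a, Dynlt1b, Dynlt1c and Dynlt1f belong to 1 family of near copies, and reads could be split between them.

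**Figure D2:**
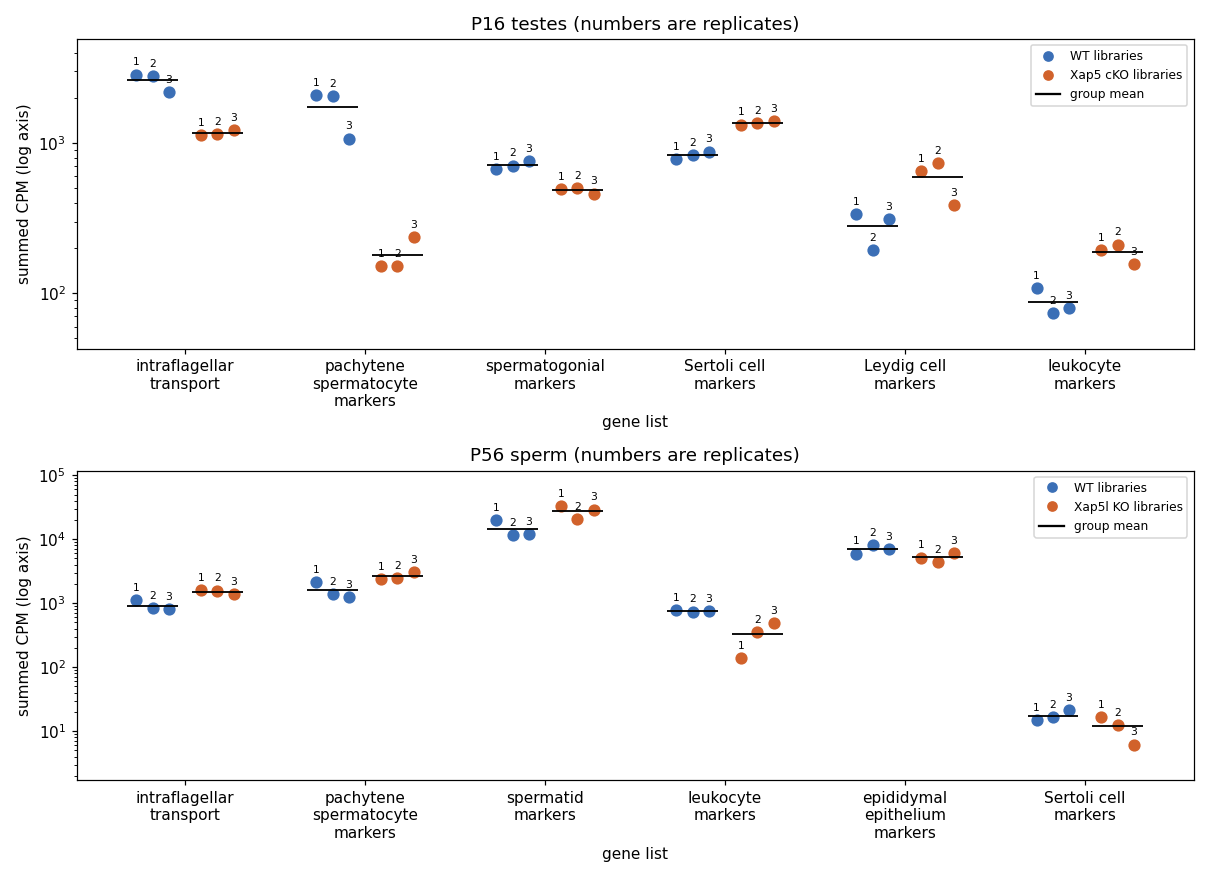
Summed CPM (log axis) of the 33 intraflagellar transport genes and of fixed lists of cell type markers in each library, with testes above and sperm below, digits for replicates and horizontal lines for group means. In testes the transport genes and the pachytene spermatocyte and spermatogonial markers are lower in every Xap5 cKO library than in any WT library. The Sertoli cell, Leydig cell and leukocyte markers are higher in every Xap5 cKO library than in any WT library. In sperm the transport genes and the pachytene and spermatid markers are higher and the leukocyte markers lower in every Xap5l KO library than in any WT library.

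The second comparison asked how the genes stood in P56 sperm without Xap5l. There the changes were mostly upward and small. At an adjusted p under 0.05 from edgeR, 9 of the 33 genes rose (27.3%) and 1, Ift20, fell, where 9.02% of all tested genes rose and 3.07% fell. Rises of more than 2-fold numbered 2, Ift43 and Kif17, which at 6.06% is near the 7.59% of all tested genes. That count moved with the processing. Ift122 and Ift81 stood at 1.98-fold, and the count was 5 (15.2%, against 8.04% of all tested genes) with RLE factors and 6 (18.2%, against 8.92%) without the mitochondrial and the 10 most abundant entries. With edgeR 0 of the 33 genes fell more than 2-fold (1.27% of all tested genes did), also at an unadjusted p under 0.05 and with DESeq2. The median log2 fold change was 0.53, or 144% of WT, beside -0.08 over all tested genes, and 27 of the 33 values were positive. In 18 genes all KO libraries lay above all WT libraries (19.2% of all tested genes) and in 4, Ift20, Ift52, Hspb11 and Wdr34, every KO library lay below (19.1%). The summed level of the 33 genes was 1105, 841 and 798 CPM in WT and 1607, 1570 and 1387 CPM in Xap5l KO sperm, 1.66-fold higher.

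The number of calls in sperm moved with the libraries used, for all genes as well as for the members. Without WT replicate 2, WT replicate 3 or KO replicate 2 no member passed the test in either direction, while over all genes 1 rose and 1 fell without either of the WT libraries and 1 rose and 2 fell without KO replicate 2. Without KO replicate 1 only Ift43 passed, where 2.24% of all tested genes rose. Without WT replicate 1 the rises of more than 2-fold numbered 7 (21.2%, against 8.76% of all tested genes). Without KO replicate 3 they numbered 9 (27.3%, against 11.2%) and those at any fold 15 (45.5%, against 14%). The median log2 fold change of the 33 genes stayed between 0.49 and 0.70 in these 6 fits. Of the 9 genes that rose, only Ift43 and Kif17 passed with library size alone as the scale, where the edgeR adjusted p of the other 7 lay between 0.0529 and 0.115 and 7.42% of all tested genes rose. With a replicate block Ift122, Wdr35, Ift172 and Kif3b did not pass (edgeR adjusted p between 0.0503 and 0.0659), where 5.8% of all tested genes rose.

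**Figure D3:**
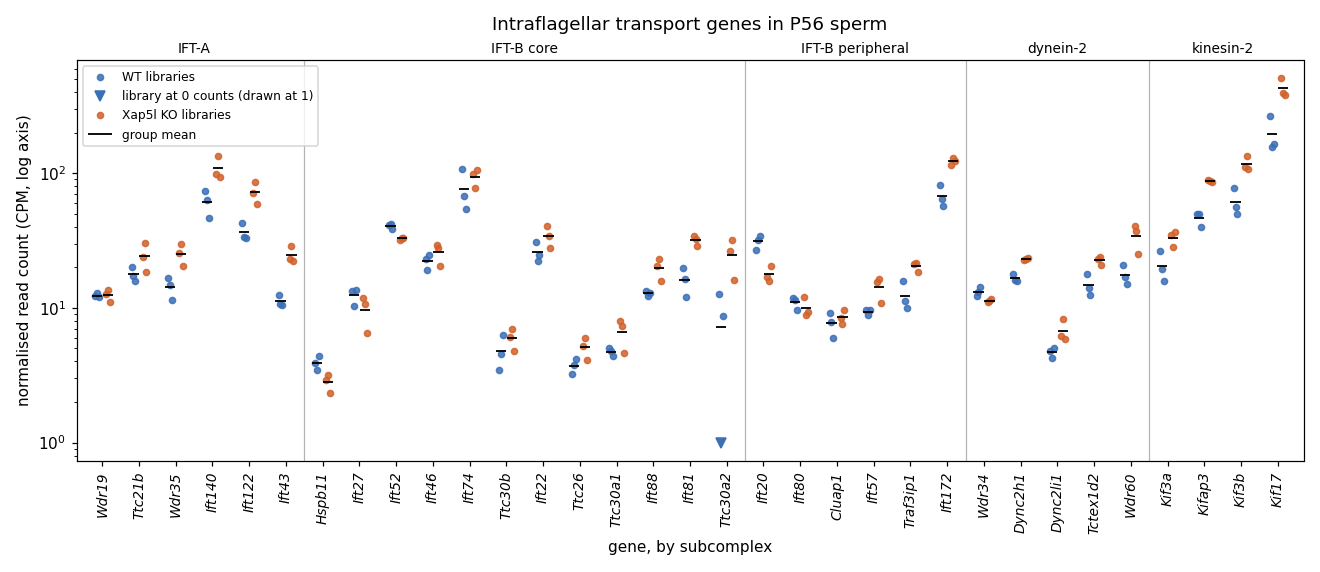
Normalised read counts (CPM, log axis) of the 33 genes in the 3 WT and 3 Xap5l KO sperm libraries at P56, grouped by subcomplex and ordered by log2 fold change within each, with group means as horizontal lines and a triangle for the WT library with 0 counts of Ttc30a2. In 18 genes, among them all 4 kinesin-2 genes, every KO point lies above every WT point. For Ift20, Ift52, Hspb11 and Wdr34 every KO point lies below every WT point.

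Markers of cell types moved in sperm as well, and their part in the changes was not tested. The summed level of 8 spermatid markers was 20000, 11700 and 12100 CPM in WT and 32670, 20370 and 29060 CPM in Xap5l KO sperm. Prm2 was the most abundant, with means of 10180 CPM in WT and 19820 CPM in KO sperm, and did not pass (edgeR adjusted p = 0.151). In 4 of the 8 markers the groups overlapped, and 2, Acrv1 and Spaca1, rose more than 2-fold (25%, against 7.59% of all tested genes). Of 7 pachytene spermatocyte markers 4, Clgn, Hspa2, Ldhc and Ovol2, rose more than 2-fold (57.1%, against 7.59% of all tested genes), while Piwil1 had a log2 fold change of -0.97 that did not pass (edgeR adjusted p = 0.104). The summed level was 2131, 1370 and 1255 CPM in WT and 2402, 2455 and 3057 CPM in KO sperm, with Pgk2 the most abundant. Leukocyte markers summed to 773, 740 and 742 CPM in WT and 139, 350 and 484 CPM in KO sperm. Lyz2 was the most abundant of them, and 1 of the 8, S100a9, fell at the test. Epididymal epithelium markers summed to 5962, 8151 and 7064 CPM in WT and 5158, 4445 and 6031 CPM in KO sperm with overlap, and none of the 7 tested passed, while Lcn5 had 0 counts in 5 of the 6 libraries. Leydig cell markers summed to 33.6, 19.4 and 15.1 CPM in WT and 14.7, 9.17 and 7.24 CPM in KO sperm, all KO libraries below WT. Sertoli cell markers summed to 14.7, 16.4 and 21.4 CPM in WT and 16.8, 12.5 and 6.16 CPM in KO sperm, with overlap, and spermatogonial markers to between 25.98 and 29.7 CPM in the 6 libraries, with overlap. Of these 3 lists only the Sertoli cell marker Cldn11 passed, with a log2 fold change of -1.53. Mitochondrially encoded genes took 20.2%, 24% and 19.3% of the counts in WT and 27.4%, 18.6% and 10.5% in KO sperm.

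The kinesin-2 genes had the highest median log2 fold change of the subcomplexes in sperm, 0.93, and 3 of the 4 rose (75%, against 9.02% of all tested genes). Kif17 had 8766, 6601 and 7626 counts in WT and 17732, 21965 and 22264 counts in Xap5l KO sperm, or 266, 157 and 165 against 506, 397 and 382 CPM. WT replicate 1 lay well above the other WT libraries but below all KO libraries, and the log2 fold change was 1.13 (SE 0.283, edgeR adjusted p = 0.0345). Kif3b had 77.2, 55.9 and 49.5 CPM in WT and 111, 135 and 107 CPM in KO sperm. Kifap3 had 49.8, 49.6 and 39.9 CPM in WT and 89.0, 87.4 and 86.8 CPM in KO sperm. Neither gene's groups overlapped, and the log2 fold changes were 0.95 (adjusted p = 0.0337) and 0.92 (edgeR adjusted p = 0.0218). Kif3a had 26.5, 19.4 and 15.7 CPM in WT and 34.7, 28.1 and 36.6 CPM in KO sperm, without overlap, at an adjusted p of 0.0798. Kif17 shares 74 exonic bases with Sh2d5 on the same strand.

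Of the IFT-A genes 3 of 6 rose in sperm (50%, against 9.02% of all tested genes), and their median log2 fold change was 0.83. Ift43 had 12.4, 10.8 and 10.4 CPM in WT and 23.2, 28.9 and 22.2 CPM in Xap5l KO sperm. The groups were far apart, and the log2 fold change of 1.14 (SE 0.202, edgeR adjusted p = 0.0148) had the smallest adjusted p of the 33 genes. Ift122 had 43.0, 33.5 and 32.98 CPM in WT and 71.0, 86.8 and 58.8 CPM in KO sperm, and Wdr35 rose from between 11.4 and 16.7 to between 20.6 and 29.9 CPM. Both were without overlap, with log2 fold changes of 0.99 (adjusted p = 0.0267) and 0.83 (edgeR adjusted p = 0.0458). Ift140 had 74.4, 63.6 and 46.7 CPM in WT and 99.2, 135 and 94.3 CPM in KO sperm, at an adjusted p of 0.0563 that missed the threshold. Wdr19 had between 12.02 and 12.8 CPM in WT and between 11.03 and 13.7 CPM in KO sperm, with a log2 fold change of 0.02.

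Of the 18 IFT-B genes 2, Ift81 and Ift172, rose (11.1%, near the 9.02% of all tested genes) and Ift20 fell (5.56%, against 3.07%). Ift81 had 19.6, 16.5 and 11.98 CPM in WT and 34.2, 32.4 and 28.8 CPM in KO sperm, and Ift172 had 81.9, 64.0 and 57.6 against 115, 130 and 123 CPM. In both the KO libraries lay above all WT libraries, with log2 fold changes of 0.99 (SE 0.227, adjusted p = 0.027) and 0.86 (SE 0.216, edgeR adjusted p = 0.0353). Ift74, the partner of Ift81, had 108, 67.5 and 54.0 CPM in WT and 99.1, 78.2 and 106 CPM in KO sperm, and its groups overlapped. Ift20 went the other way. It had 886, 1349 and 1598 counts in WT and 598, 871 and 1202 counts in KO sperm, or 26.9, 32.1 and 34.5 against 17.1, 15.7 and 20.6 CPM. All KO libraries lay below the lowest WT library, WT replicate 1, and the log2 fold change was -0.81 (SE 0.205, edgeR adjusted p = 0.0359). The fall did not pass the test under 7 of 15 alternatives: without low-count filtering (adjusted p = 0.0636), with library size alone as the scale (0.156), with a replicate block (0.0606), and without WT replicate 2, WT replicate 3, KO replicate 1 or KO replicate 2 (0.108 to 0.149). Over the alternatives tried the edgeR or DESeq2 adjusted p ranged from 0.00848 to 0.156, and the log2 fold change from -0.91 to -0.72. Ift52, Hspb11 and Wdr34, the other members with all KO libraries below WT, did not pass, with log2 fold changes of -0.31, -0.49 and -0.22.

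Ttc30a2 had the largest log2 fold change of the 33 genes in sperm, 1.80, but the SE was 1.02 and the edgeR adjusted p 0.239. It had 420, 0 and 404 counts in WT and 923, 1763 and 944 counts in Xap5l KO sperm, and the KO libraries lay above all WT libraries. The other IFT70 genes were present in WT replicate 2, with 203 counts of Ttc30a1 and 190 of Ttc30b. Summed over the 3 genes, the counts were 698, 393 and 900 in WT and 1416, 2554 and 1493 in KO sperm, with a log2 fold change of the sum of 1.17 (SE 0.333, edgeR adjusted p = 0.049). The sum includes the 0 of Ttc30a2 in WT replicate 2 and was chosen after the data were seen. Alone, Ttc30a1 and Ttc30b did not pass (edgeR adjusted p = 0.203 and 0.44). The remaining IFT-B genes did not pass the test, and of these Ift88, Ift57 and Traf3ip1 had all KO libraries above WT, with log2 fold changes of 0.62, 0.60 and 0.73.

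Of the dynein-2 genes only Wdr60, an intermediate chain, passed in sperm. It had 20.7, 16.8 and 15 CPM in WT and 40.9, 37.0 and 25.1 CPM in Xap5l KO sperm, without overlap, and a log2 fold change of 0.97 (SE 0.241, edgeR adjusted p = 0.0333). KO replicate 3 was the lowest KO library here as well. Dync2h1 had 17.8, 16.1 and 15.7 CPM in WT and 22.9, 23.0 and 23.6 CPM in KO sperm. The groups did not overlap and each was narrow, but the log2 fold change of 0.49 did not pass (edgeR adjusted p = 0.0968). Of the 23 other genes of the pathway 5 rose in sperm (21.7%, against 9.02% of all tested genes), 4 of them more than 2-fold (17.4%, against 7.59%). With edgeR 0 fell, and 1, Dynlt3, had a negative log2 fold change at an unadjusted p under 0.05. These were the light chain genes Dynlt1a and Dynlt1b, the kinases Mak and Mok, and Arl13b, a GTPase of the ciliary membrane, with log2 fold changes of 1.14, 1.49, 1.33, 1.29 and 0.90. Mak had 21.7, 14.6 and 13.9 CPM in WT and 53.2, 48.9 and 24.4 CPM in KO sperm, with KO replicate 3 the closest to WT.

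**Figure D4:**
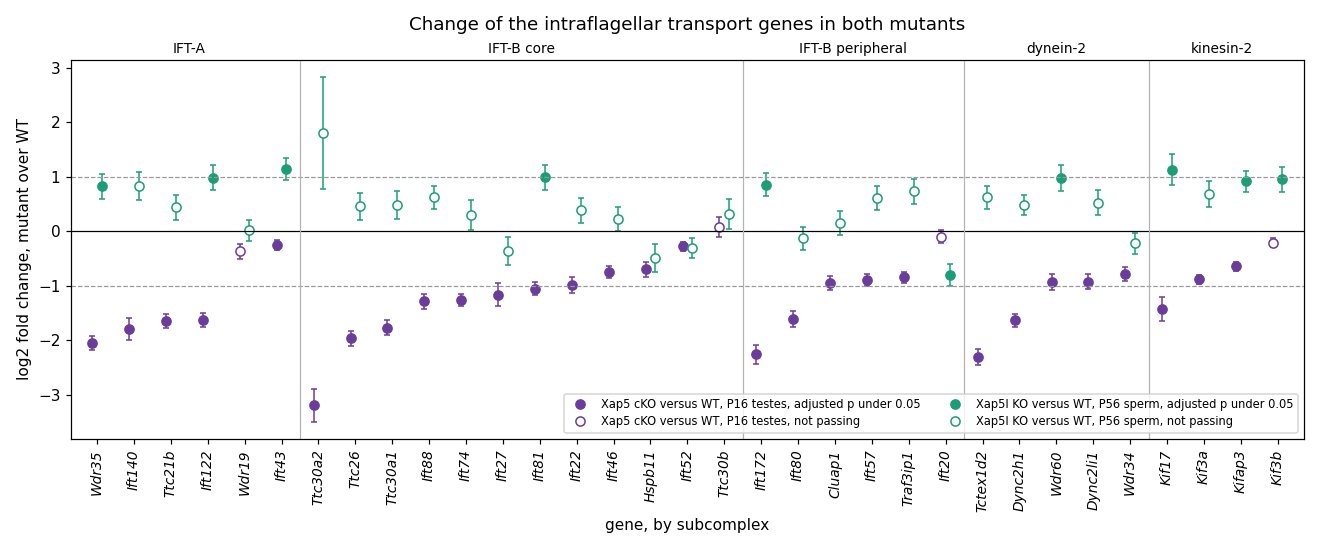
Log2 fold change of each of the 33 genes in Xap5 cKO testes and in Xap5l KO sperm, each against its WT, with standard errors as bars, filled points for an adjusted p under 0.05 and dashed lines at a 2-fold change. Apart from Ttc30b all testis values lie below 0, and 27 of the 33 sperm values lie above 0.

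Set side by side, the comparisons share no library, and 8 genes (24.2%) rose in Xap5l KO sperm and fell in Xap5 cKO testes, as did 4.43% of the 13962 genes tested in both tissues. These were Ift43, Ift122, Wdr35, Ift81, Ift172, Wdr60, Kifap3 and Kif17. As 29 of the 33 members fell in testes, most of the 9 that rose in sperm had to be among those 29. This count of 8 thus follows largely from the counts within each tissue. The sperm part of this count moved with the libraries used. No member passed in sperm without WT replicate 2, WT replicate 3 or KO replicate 2. No gene fell in both, as 0.473% of all genes did. A further 21 (63.6%, against 25.3% of all genes) fell in Xap5 cKO testes without passing in sperm, Kif3b rose in sperm without passing in testes, Ift20 fell in sperm without passing in testes, and Wdr19 and Ttc30b passed in neither (6.06%, against 39.4% of all genes). The difference between the comparisons was not tested, since tissue, age and mutated gene differ together and cannot be told apart. Across the 33 genes the Spearman correlation of the log2 fold changes was -0.305, and across the 13962 genes tested in both tissues it was -0.354, so that a negative relation of this size was found over all genes as well. Genes are not independent replicates, and no p-value is given.

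Levels of different genes were compared as CPM per kb of exon length. The tables were normalized separately, so that only the order within a tissue is described. In WT testes Ift74 (43.4 ± 5.80), Ift20 (37.1 ± 4.76) and Kif3a (32.96 ± 0.486) had the highest levels per kb, and among these 3 neighbours did not differ beyond their SDs. Kif17 was the lowest of the 33, at 1.86 ± 0.0233, below Ttc30b at 4.79 ± 1.09 without overlap of the SDs. In Xap5 cKO testes Ift20 was the highest, at 34.6 ± 4.10, followed by Ift43 at 21.4 ± 0.390 and Ift52 at 19.8 ± 0.386. In WT sperm the order was another one, with Kif17 the highest at 42.7 ± 13.3, followed by Ift74 at 28.8 ± 10.5 and Ift20 at 20.4 ± 2.55, and the SDs of neighbours among these 3 overlapped. In Xap5l KO sperm Kif17, at 93.5 ± 14.8, stood apart from Ift74 at 35.5 ± 5.38, and Ift20 was the ninth, at 11.7 ± 1.66. Kif17 was thus the member with the lowest level per kb in WT testes at P16 and the highest in WT sperm.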

How the data were processed

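RNA-seq counts of 3 libraries per genotype were analysed, separately for sperm and testes. The authors extracted RNA with TRIzol, made poly(A) NEBNext Ultra II libraries and mapped paired-end reads to GRCm38. They deposited raw counts, one whole number per gene and library. The submitters' processing notes name FastQC 0.11.2, Trimmomatic 0.36, HISAT2 2.1.0 and DESeq2 1.12.4. The counting tool, whether strand was used and how multi-mapping reads were treated were not given in the sources used here.

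Counts were filtered with filterByExpr, scaled by TMM and tested with edgeR 4.0.16 (quasi-likelihood, genotype the only term, Benjamini-Hochberg adjustment over all tested genes) in R 4.3.3 with limma 3.58.1, and with DESeq2 1.42.0 as an alternative. A gene rose or fell at an adjusted p under 0.05, and more than 2-fold changes were counted apart. The common biological coefficient of variation came to 0.287 (sperm) and 0.174 (testes), and library totals ranged from 32251198 to 52308452 counts. For 1 gene in groups of 3, the smallest p of an exact two-sided permutation test is 0.1. Replicates were biological. The p-values set the difference between genotypes against the spread between these libraries only, estimated with information shared across genes.

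The named genes were the 33 members, the targeted genes and a part of the fixed lists of pathway and marker genes. From these lists some, not all, of the genes that passed the test were named, and for most marker lists the most abundant gene. Other genes of the lists, named for being at or near 0, for missing the test or as near copies, were chosen after their values were seen. Members and lists were chosen with earlier results of these data known. Promoter sequences were from RefSeq (GRCm38.p6), and positions, exon lengths and coding sequences from GENCODE (GRCm38). Ick was found in the testis table as Cilk1. Alternatives were other filters, RLE factors, library size alone, leaving out the mitochondrial and the 10 most abundant entries, DESeq2, a replicate block, summed numbered entries, unadjusted p-values and leaving out each library. Summing the 3 Ttc30 genes was added after the data were seen. The tests were tried on simulated data, and no result of that trial is used here. A planned comparison of the IFT70 proteins was made on the coding sequences in their place. Figures were drawn with Python 3.11.15 and matplotlib 3.10.9.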

Additional observations from a re-analysis of the deposited data

How the results depend on the processing

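In testes the counts of genes that rose or fell kept within 1.5 times of the reported ones under every alternative. With each library left out between 15 and 20 genes fell more than 2-fold (45.5% to 60.6%, against 9.84% to 11.4% of all tested genes). Between 27 and 31 fell at any fold (81.8% to 93.9%, against 23.6% to 28.2%), and the median log2 fold change lay between -1.10 and -0.91. In sperm the 2 rises of more than 2-fold (6.06%, against 7.59% of all tested genes) became 6 (18.2%, against 5.21%) without a filter on low counts, 4 (12.1%, against 9.01%) with at least 10 counts in every library, 5 (15.2%, against 8.04%) with RLE factors, 6 (18.2%, against 8.92%) without the mitochondrial and the 10 most abundant entries, 5 (15.2%, against 10.2%) with DESeq2, and between 0 and 9 with 1 library left out. The 9 rises at any fold became 2 (6.06%, against 7.42%) with library size alone, 14 (42.4%, against 14%) with DESeq2, and between 0 and 15 with 1 library left out. The 1 fall, of Ift20, became 0 without a filter and with library size alone, and between 0 and 1 with 1 library left out. The cause of these differences was not tested. The labels do not say whether the replicate numbers pair the libraries. Deviations of same-numbered libraries correlated at 0.173, -0.018 and -0.133 in sperm and at 0, -0.038 and -0.045 in testes. For differently numbered libraries the values lay between -0.198 and 0.259 in sperm and between -0.075 and 0.099 in testes. With 3 libraries per group such values cannot settle whether libraries were paired. With a replicate block 5 genes (15.2%, against 5.8%) rose and 0 fell in sperm, and in testes 28 (84.8%, against 26.2%) fell, with Ift43 lost (adjusted p = 0.0662 from edgeR). Signs turned with 1 library left out for 4 genes that did not pass the test: in sperm Wdr19 ranged from -0.056 to 0.177 and Cluap1 from -0.003 to 0.291 on the log2 scale, and in testes Ift20 ranged from -0.183 to 0.008 and Ttc30b from -0.064 to 0.262. Over all tested genes in sperm, 1589 rose and 267 fell more than 2-fold, and with 1 library left out between 1 and 2402 rose and between 1 and 443 fell. At any fold, between 0.0046% and 14% of all tested genes rose with 1 library left out and between 0.0046% and 5.49% fell. Leaving out a library left 1 group with 2 libraries.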
